A study of Mus musculus with 12 samples.

Results

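The mouse mitochondrial genome carries 37 genes, and all 37 were found among the 55401 gene identifiers of the deposited table by taking every identifier whose symbol in the GENCODE vM21 annotation starts with mt-. They comprise 13 messenger RNAs, 2 ribosomal RNAs and 22 transfer RNAs, and membership does not depend on any measured value. RNA came from live cells sorted out of B16-OVA tumours in wild-type mice for CD45, found on all white blood cells, and CD11c, an integrin subunit typical of dendritic cells and also found on macrophages. The tumour line, B16-OVA, is a melanoma of mice that makes ovalbumin as a model antigen. The 12 libraries fall into 4 groups of 3: untreated, fusion protein, 20 Gy and combined. Treatment began when tumours had grown for 10 days: the fusion protein was dosed at 20 mcg on that day and at 10 mcg on day 14, the radiation was a dose of 20 Gy on day 10, and combined mice had both. Tumours of all groups were collected on day 17. What the fusion protein consists of is not stated in the labels. By its title, the series is about CCL22, a chemokine, in dendritic cells and about radioresistance. Whether the 3 samples of a group are 3 different animals is not in the labels, so a p-value here reflects only how these samples vary, and that variation may be technical.

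Mitochondrial DNA is a small circle transcribed from both strands into long precursors, which are cut mainly at the tRNA sequences that lie between the other genes. The 13 proteins are subunits of the respiratory chain and of ATP synthase: mt-Nd1 to mt-Nd6 and mt-Nd4l belong to complex I, mt-Cytb to complex III, mt-Co1 to mt-Co3 to complex IV, and mt-Atp6 and mt-Atp8 to ATP synthase. The ribosomal RNAs mt-Rnr1 (12S) and mt-Rnr2 (16S) form the core of the mitochondrial ribosome. The annotation places 28 genes on the plus strand of the reference and 9 on the minus strand, the latter being mt-Nd6 and 8 tRNAs. Transcription, processing and translation of all 37 depend on proteins encoded in the nucleus.

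Stretches of mitochondrial DNA have been copied into nuclear chromosomes during evolution, and a read from a stretch that is identical in both places cannot be placed by sequence. The stretches below show how close the nearest nuclear copies are for 3 sparsely counted mRNAs and for mt-Co1, which was well covered. They were read from the GENCODE vM21 transcripts (GRCm38, mm10), 5′ to 3′ on the strand of the gene. Capitals mark a base at which the mitochondrial gene and its nuclear copy differ.
mt-Co2 (chrM:7013-7072, plus strand, first 60 bases): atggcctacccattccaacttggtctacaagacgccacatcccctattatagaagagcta
Gm28661 (chr1:24615506-24615565, minus strand): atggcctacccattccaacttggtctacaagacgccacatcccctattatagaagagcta
mt-Atp6 (chrM:7927-7986, plus strand): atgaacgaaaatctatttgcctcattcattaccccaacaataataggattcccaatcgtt
Gm10925 (chr1:24614592-24614651, minus strand): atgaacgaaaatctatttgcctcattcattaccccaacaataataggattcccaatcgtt
mt-Nd3 (chrM:9459-9518, plus strand): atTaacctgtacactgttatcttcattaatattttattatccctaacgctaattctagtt
Gm28438 (chr1:24613060-24613119, minus strand): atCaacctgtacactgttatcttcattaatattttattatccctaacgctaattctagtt
mt-Co1 (chrM:6390-6449, plus strand): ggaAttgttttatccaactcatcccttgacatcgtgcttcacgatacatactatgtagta
Gm29216 (chr1:24616129-24616188, minus strand): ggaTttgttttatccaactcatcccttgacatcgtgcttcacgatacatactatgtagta
Both pairs without capitals are identical over the 60 bases shown. Gm28438 differs from mt-Nd3 by 1 substitution, T3C, and Gm29216 from its part of mt-Co1 by A1066T, with positions counted from 1 at the 5′ end of the mitochondrial gene.

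The copies on chromosome 1 are 7 annotated unprocessed pseudogenes that lie within 4663 bases (24611535 to 24616197, minus strand). They match, in the mitochondrial gene order, the end of mt-Co1 (Gm29216), mt-Co2 (Gm28661), mt-Atp6 (Gm10925), mt-Co3 (Gm28437), mt-Nd3 (Gm28438), mt-Nd4l (Gm10222) and the start of mt-Nd4 (Gm28439). The spacing is kept as well: 233 bases separate Gm28661 from Gm10925, and 230 separate mt-Co2 from mt-Atp6. Of all 100-base windows of the mitochondrial gene, the length of a read here, 99.5% had an identical window in an annotated nuclear transcript for mt-Co2, 99.5% for mt-Atp6, 99.9% for mt-Co3, 97.6% for mt-Nd3 and 98.5% for mt-Nd4l. The share was 60.8% for mt-Nd4, 30.8% for mt-Co1 and 3.19% for mt-Nd2. Not all of these windows lie on chromosome 1. The 30 shared windows of mt-Nd2 are those of Gm13339, a pseudogene on chromosome 2. On the same chromosome Gm13340 shared 80 windows with mt-Co1 and had 187 to 1027 normalized counts, and Gm13341 shared 88 windows with mt-Co2. The share was 0 for both rRNAs and for mt-Nd1, mt-Nd5, mt-Nd6, mt-Cytb and mt-Atp8. Sequence outside annotated transcripts was not searched, so these shares are lower limits for the genome.

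Counts of the mRNAs fell into 2 tiers. The lower tier held the 5 mRNAs with 97.6% or more of identical windows, and also mt-Atp8. The deposited values are DESeq2-normalized read counts. In the 7 mRNAs mt-Nd1, mt-Nd2, mt-Co1, mt-Nd4, mt-Nd5, mt-Nd6 and mt-Cytb every library had between 1871 and 131563 normalized counts. In the remaining 6, mt-Co2, mt-Atp8, mt-Atp6, mt-Co3, mt-Nd3 and mt-Nd4l, no library had more than 78.5. For 3 of these mRNAs the reads of the copy are set beside them as ratios. Gm28661 received 5 to 12.8 times the reads of mt-Co2 in the same library, Gm10925 8.89 to 20.4 times those of mt-Atp6, and Gm28437 4.69 to 13.3 times those of mt-Co3. By normalized counts, Gm28438 had 123 to 571 and mt-Nd3 at most 3, and Gm10222 had 20.2 to 131 and mt-Nd4l at most 9.44. mt-Atp8, whose 204 bases hold only 105 windows, shares no window with a copy and 43 bases with Gm10925, and had 3.6 to 40.6 normalized counts. How reads with several matches were counted is not given, and the part of the copies in the low counts was not tested. Levels and changes of the 6 sparsely counted mRNAs are therefore uncertain.

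**Figure D1:**
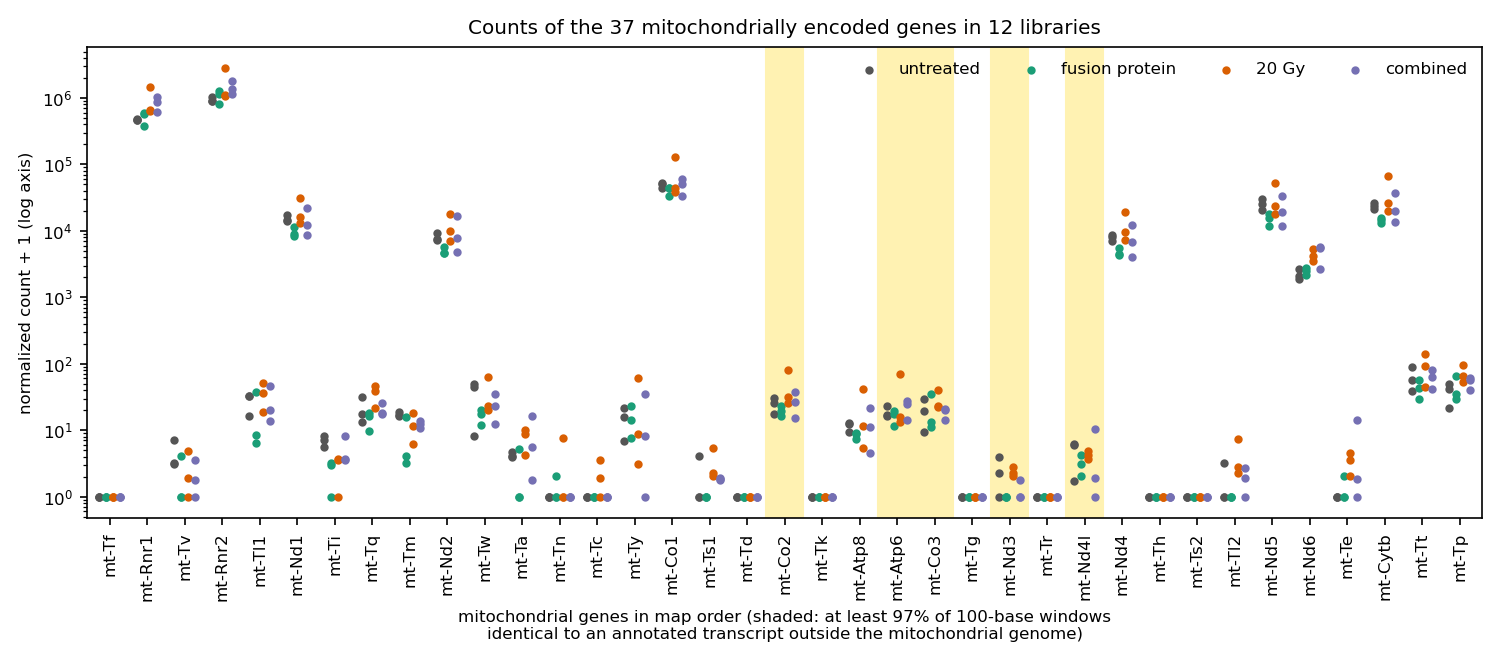
Normalized count plus 1 (log axis) of each of the 37 mitochondrial genes, in map order, in each of 12 libraries coloured by group. Shading marks the 5 genes with at least 97% of 100-base windows identical to an annotated nuclear transcript: all their points lie at or below 78.5 normalized counts, while neighbouring well-covered mRNAs lie above 1871.

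Each library held 14462032 to 23985496 reads in genes. The mitochondrial share of these reads was 6.95% to 14.3% in 11 libraries and 18.6% in 20 Gy library 3. From 1754 genes for odorant, pheromone and trace amine receptors, which immune cells are not known to need, reads came to 20 to 93.2 per 1000000 in the untreated group, 20.6 to 78.8 with the fusion protein, 37.9 to 519 after 20 Gy and 60.2 to 191 in the combined group. The summed normalized count of 8 melanocyte markers, of which 8 of 8 had reads, was 96.1 to 1860 untreated, 149 to 4794 with the fusion protein, 246 to 16093 after 20 Gy and 268 to 1336 in the combined group. The melanocyte pigment enzyme Tyrp1 had 4718 in the same 20 Gy library 3. In each group the highest melanocyte sum was that of library 3. Sums of 6 B and plasma cell markers were lowest in library 3 of each group, at 133, 339, 246 and 2893 in the same order. They were 5342 to 16805 in the other libraries. Sums of 7 T cell markers were lowest in library 1 of each group, at 5903, 8069, 3822 and 5353. What the library number stands for is not in the labels. Sums of 5 red cell markers were 6.24 to 785, 3.04 to 398, 2011 to 2897 and 91.2 to 396 in that order of groups, and sums of 6 macrophage markers 2894 to 8955, 2352 to 7771, 7104 to 10556 and 2024 to 4042. Sums of 8 dendritic cell markers were 33551 to 64811, 12994 to 29112, 56537 to 70674 and 25628 to 33951. By this sum the fusion protein libraries lay wholly below the untreated ones. H2-Ab1 alone had 22957 of the 33551 in untreated library 2 and 21083 of the 29112 in fusion protein library 2. Singly, H2-Ab1, Flt3, Xcr1 and Cd209a also lay wholly below, while Itgax, Zbtb46, Clec9a and Ccr7 overlapped. Sums of 6 neutrophil markers were 115 to 1577, 403 to 3668, 2769 to 4670 and 1704 to 5276, so both irradiated groups lay wholly above the untreated one. Sums of 5 NK cell markers were 12025 to 13020, 12612 to 25112, 7252 to 8479 and 13201 to 14793, lowest after 20 Gy. CD45 itself (Ptprc, 30925 to 53839) and CD11c (Itgax, 2226 to 9497) were present in all 12 libraries. The part of these differences in the results on mitochondrial genes was not tested, and in bulk samples fewer cells of a type and less RNA per cell cannot be told apart.

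The ribosomal RNAs dominated the mitochondrial reads. Of 25491706 mitochondrial reads in all libraries, 93.6% came from mt-Rnr1 and mt-Rnr2, 6.39% from the 13 mRNAs and 0.011% from the 22 tRNAs. Shares and sums over the 13 mRNAs rest almost wholly on the 7 well-covered ones, as each of the other 6 had at most 78.5 normalized counts. Library kits of this type deplete ribosomal sequences with probes. Their reach to mouse mitochondrial rRNA is not given, so the rRNA levels are those left after that step. mt-Rnr2 (chrM:1094-2675, plus strand) averaged 809038 normalized counts per kb over the 12 libraries and mt-Rnr1 (chrM:70-1024, plus strand) 722270.

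Among the mRNAs, mt-Co1, the catalytic core of cytochrome c oxidase, had the highest level per kb, a mean of 33810 normalized counts. mt-Cytb, the cytochrome of complex III, followed at 21697, then mt-Nd1 at 15504, mt-Nd5 at 12864, mt-Nd2 at 8303, mt-Nd6 at 6626 and mt-Nd4 at 5913. Expressed as a share of the summed per-kb level of the 13 mRNAs within a library, mt-Co1 took 26.1% to 40.4%, mt-Cytb 17.6% to 23.3% and mt-Nd1 12.2% to 16.2%. These 3 ranges do not overlap. mt-Nd5 took 10.4% to 14.7% and overlapped with mt-Nd1. mt-Nd2 took 6.34% to 10.9%, mt-Nd6 3.61% to 11.1% and mt-Nd4 4.57% to 6.7%. These ranges overlap between neighbours over the 12 libraries. Within each library, however, mt-Nd1 lay above mt-Nd5 and mt-Nd5 above mt-Nd2. The nearest values were 12.2% against 11.8% (fusion protein library 3) and 12.3% against 10.9% (combined library 2). The place of mt-Nd6 relative to mt-Nd2 and mt-Nd4 changed between libraries. The place of mt-Nd4 depended on how its length was counted. When the count was divided by the number of windows with no identical nuclear window, an alternative chosen after seeing the data, mt-Nd4 moved from the seventh to the fourth place at 16232 per 1000 windows, between mt-Nd1 at 17293 and mt-Nd5 at 13602, and mt-Co1 stood at 52236.

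The sparsely counted mRNAs ranged from 58.7 normalized counts per kb for mt-Atp8 through mt-Co2 (41), mt-Atp6 (31.8), mt-Co3 (26.2) and mt-Nd4l (10.5) to mt-Nd3 (2.2). mt-Nd3, a small subunit of complex I, had no read in 6 of 12 libraries and at most 3 normalized counts, while Gm28438 had 123 to 571. Per library, mt-Co2 had 29.2, 25 and 16.6 normalized counts without treatment, 22.2, 15.2 and 18.7 with the fusion protein, 24.6, 31.1 and 78.5 after 20 Gy and 14.4, 25.2 and 36.2 in the combined group. The highest value for mt-Co2, mt-Atp8, mt-Atp6 and mt-Co3 was in 20 Gy library 3, as it was for 6 of the 7 well-covered mRNAs.

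Transfer RNA genes were barely covered. Their 59 to 75 bases are shorter than a read, and their 22 genes together received 2793 reads in 12 libraries. Of the 14 plus-strand tRNA genes 7 had a read somewhere, and of the 8 minus-strand genes 8 did. The 7 without a read were mt-Tf, mt-Td, mt-Tk, mt-Tg, mt-Tr, mt-Th and mt-Ts2. A count of 0 over 227909898 reads allows up to 0.0132 reads per 1000000, by a limit of 3 counts that covers counting error only. The sequences of the pair with most reads and of a pair with none are given because all 4 are of similar length.
mt-Tt (tRNA-Thr, chrM:15289-15355, plus strand): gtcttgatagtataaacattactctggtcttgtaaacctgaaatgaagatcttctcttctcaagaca
mt-Tp (tRNA-Pro, chrM:15356-15422, minus strand): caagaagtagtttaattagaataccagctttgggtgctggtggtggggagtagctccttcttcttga
mt-Tf (tRNA-Phe, chrM:1-68, plus strand): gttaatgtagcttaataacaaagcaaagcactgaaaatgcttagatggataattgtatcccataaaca
mt-Tk (tRNA-Lys, chrM:7700-7764, plus strand): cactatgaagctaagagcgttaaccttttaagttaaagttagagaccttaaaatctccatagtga
mt-Tt directly follows mt-Cytb on the same strand, and mt-Tk lies between mt-Co2 and mt-Atp8, which were themselves sparsely counted. Reads of precursors that span a tRNA and its neighbour cannot be told apart from mature tRNA here.

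Per gene, mt-Tt had 28.6 to 140 normalized counts and mt-Tp 20.7 to 94.2. They were followed by mt-Tw (tRNA-Trp, 7.24 to 61.5), mt-Tl1 (a leucine tRNA next to mt-Rnr2, 5.49 to 49.7) and mt-Tq (tRNA-Gln, 8.79 to 45.8). These 5 genes held 81.7% of all tRNA reads. mt-Tp was 48.7, 41.2 and 20.7 without treatment, 63.5, 34.4 and 28.6 with the fusion protein, 52.8, 64.3 and 94.2 after 20 Gy and 39.6, 55.8 and 60.4 in the combined group. The 20 Gy values all lay above the untreated ones.

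The share of all reads from the 2 rRNA genes separated the irradiated from the other libraries. It was 8.55%, 7.61% and 7.61% without treatment and 10%, 6.4% and 8.91% with the fusion protein. It was 11.1%, 10.8% and 17.3% after 20 Gy and 10.2%, 11.8% and 13.7% in the combined group. All 6 irradiated libraries thus lay above all 6 others, by a margin of 10.2% against 10% at the nearest. Group means were 7.92% ± 0.54, 8.44% ± 1.85, 13.1% ± 3.65 and 11.9% ± 1.76 (SD, n = 3), and 20 Gy library 3 set the upper end. In normalized counts the split held for mt-Rnr1, with 625724 as the lowest irradiated value and 589631 as the highest other. It did not hold for mt-Rnr2. There fusion protein library 3, at 1292082, lay above 20 Gy libraries 1 and 2 (1078782 and 1095006) and combined library 1 (1157029). Shares and ratios over members are descriptions with no test.

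The share of the 13 mRNAs followed another order. It was 0.728%, 0.816% and 0.656% without treatment, 0.462%, 0.554% and 0.451% with the fusion protein, 0.693%, 0.826% and 1.31% after 20 Gy, and 0.457%, 0.993% and 0.593% in the combined group. All fusion protein libraries lay below all untreated ones, and the combined libraries spread on both sides of the untreated range. The per-kb levels of the 2 rRNAs were summed and divided by the summed per-kb levels of the 13 mRNAs. This ratio of sums, not of single genes, was 9.48 to 11.8 without treatment and 11.7 to 21.4 with the fusion protein. It was 13 to 15.9 after 20 Gy and 11.9 to 22.9 in the combined group. The library numbered 2 had the lowest ratio in 4 of 4 groups; the meaning of that number is not in the labels.

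**Figure D2:**
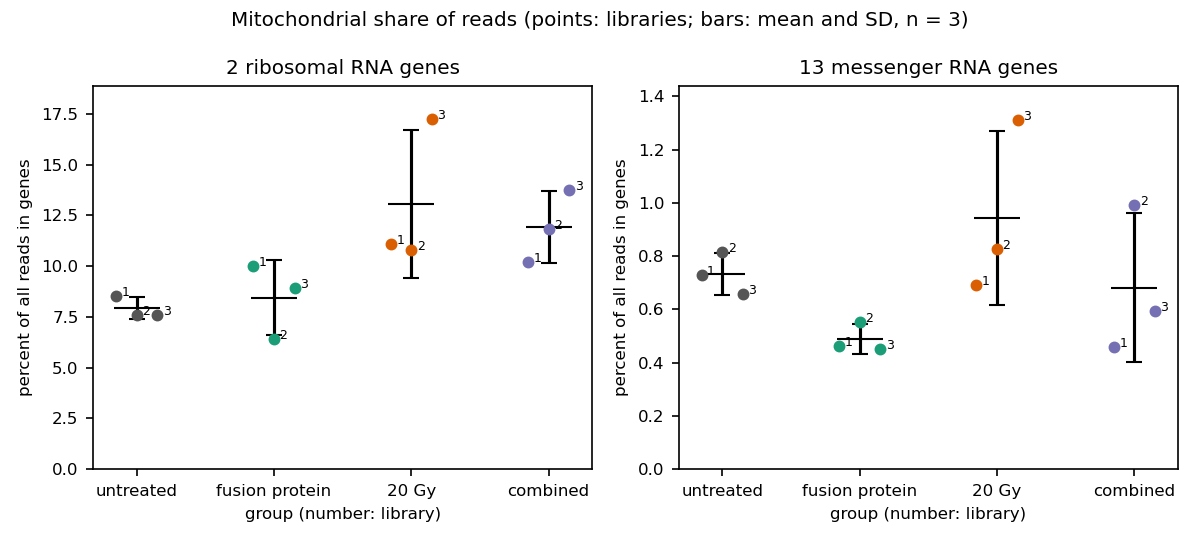
Percent of all reads in genes from the 2 ribosomal RNA genes (left) and the 13 messenger RNA genes (right), by group, with the library number beside each point and the mean and SD (n = 3) as bars. The irradiated libraries lie at 10.2% to 17.3% for rRNA, above the others, while the fusion protein libraries are lowest as a group for mRNA, at 0.451% to 0.554%.

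The balance of the 2 rRNAs also divided by irradiation. mt-Rnr2 over mt-Rnr1 per kb was 1.16, 1.2 and 1.28 without treatment and 1.16, 1.27 and 1.34 with the fusion protein. It was 1.03, 1.02 and 1.13 after 20 Gy and 1.12, 0.948 and 1.04 in the combined group. All 6 irradiated libraries, with a maximum of 1.13, lay below all 6 others, with a minimum of 1.16. This ratio is taken within a library and does not depend on the size factors. The reads from silent receptor genes moved with it only in part: among irradiated libraries they were lowest, at 37.9 per 1000000, where the ratio was highest (20 Gy library 3), and highest, at 519 and 316, where it was 1.03 and 1.02, but the lowest ratio, 0.948, stood beside 60.2. Their part was not tested.

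mt-Nd6 (chrM:13552-14070, minus strand) encodes a membrane subunit of complex I and is the only mRNA on its strand; 505 of its 519 bases lie outside mt-Nd5. Whether the counting used strand is not given. If it did not, reads of the opposite precursor across this stretch cannot be told apart from mt-Nd6. Its level per kb, as a percent of the mean of the 6 well-covered mRNAs of the other strand, was 36.6, 22.5 and 22.7 without treatment and 56.5, 34.5 and 43.7 with the fusion protein. It was 52.4, 49 and 26.5 after 20 Gy and 54.8, 48.3 and 75.2 in the combined group. Every combined library lay above every untreated one. In the fusion protein and 20 Gy groups 2 of 3 libraries lay above the untreated range.

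**Figure D3:**
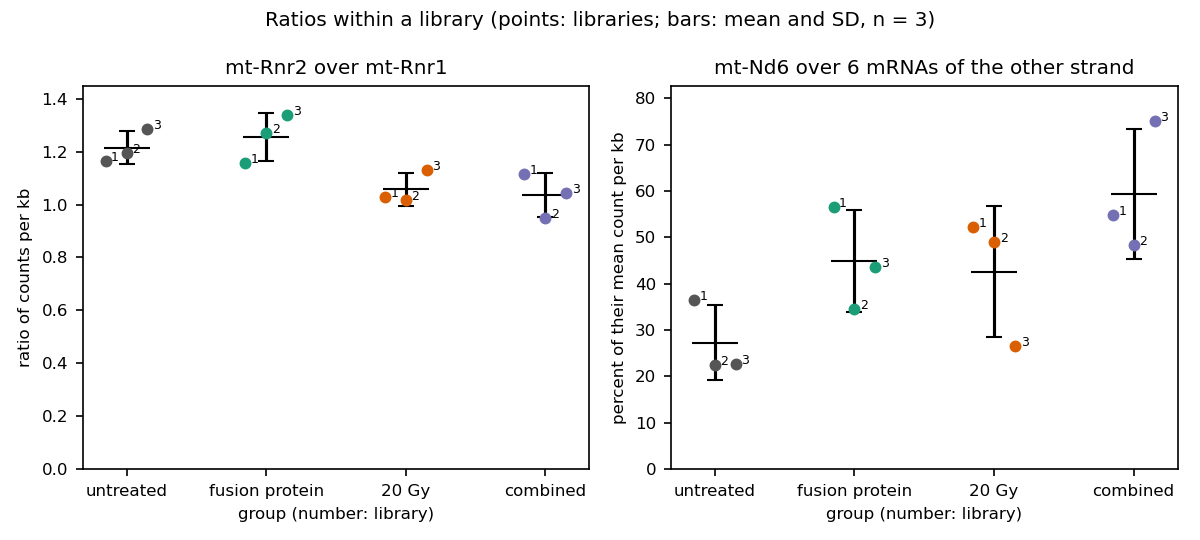
Within-library ratios by group, with the library number beside each point and the mean and SD (n = 3) as bars: mt-Rnr2 over mt-Rnr1 per kb (left) and mt-Nd6 as a percent of the mean per-kb level of 6 well-covered mRNAs of the other strand (right). The irradiated libraries lie at 0.948 to 1.13 for the rRNA ratio against 1.16 to 1.34 in the others, and combined libraries lie at 48.3% to 75.2% for mt-Nd6 against 22.5% to 36.6% without treatment.

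Groups were compared on log2 of the normalized count plus 1 in 18274 genes with limma, which fits a linear model per gene and moderates its variance. Adjustment for multiple tests (Benjamini-Hochberg) covered all 18274, and a gene passed at an adjusted p under 0.05. Of the 37 members 20 passed the filter on low values and were tested: 11 mRNAs, without mt-Nd3 and mt-Nd4l, both rRNAs and 7 tRNAs. Each log2 fold change is given ± the SE from this model. The 3 comparisons against untreated libraries share those libraries, and the 3 that involve the combined group share that group.

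The first comparison asked what 20 Gy alone was followed by. mt-Nd6 had the smallest p of the members. Its normalized counts were 2709, 2096 and 1871 without treatment and 3516, 4131 and 5409 after 20 Gy, so all 3 irradiated libraries lay above the untreated ones. The log2 fold change was 0.96 ± 0.29 (1.95-fold; 95% interval 0.33 to 1.59), which did not pass over all genes (limma adjusted p = 0.665), and it was 0.79 without 20 Gy library 3. Under 11 alternative settings the value lay between 0.94 and 1.43 with adjusted p from 0.106 to 0.874.

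mt-Rnr1, the RNA of the small ribosomal subunit, had 471575, 460670 and 487481 normalized counts without treatment and 634291, 649551 and 1488036 after 20 Gy. The groups do not overlap, and the log2 fold change was 0.84 ± 0.44 (95% interval −0.12 to 1.81; limma adjusted p = 0.723). mt-Rnr2, the RNA of the large subunit, had 908859, 912688 and 1037005 against 1078782, 1095006 and 2786166, a log2 fold change of 0.65 ± 0.50 (limma adjusted p = 0.803). Without 20 Gy library 3 these values were 0.44 and 0.19.

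The other well-covered mRNAs overlapped between the groups. mt-Co1 had 43465, 52932 and 50223 normalized counts without treatment and 37942, 43661 and 131563 after 20 Gy, and mt-Cytb 21682, 26674 and 23637 against 20018, 26123 and 65849. In both the third irradiated library stood far above the other 2, which lay within or below the untreated range. The log2 fold changes of 0.31 ± 0.41 for mt-Co1 and 0.44 ± 0.43 for mt-Cytb became −0.26 and −0.06 without that library. The median over the 13 mRNAs went from 0.40 to −0.04, against 0.04 over all genes tested. The 13 include the sparsely counted mRNAs, of which mt-Nd3 and mt-Nd4l were not tested, and 0.40 is the value of mt-Atp6. With all libraries the median over the 7 well-covered mRNAs was 0.41. With the reads from silent receptor genes as a covariate the median of the 13 was 1.37. Of 20 members 13 then had an unadjusted p under 0.05 (limma), where 964 of 18274 genes did, and 0 passed. In the main fit 0 of the 20 tested members passed (limma), and 0% of all genes did. An unadjusted p under 0.05 was found for 1 of the 20 and for 6.74% of all genes. Members called also numbered 0 with edgeR, DESeq2 and the replicate block, where 0%, 0.246% and 0.383% of all genes were called. Of the 20, 4 lay wholly above the untreated libraries (mt-Nd6, mt-Rnr1, mt-Rnr2 and mt-Tp) and 0 wholly below, where 6.73% and 4.79% of all genes did.

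The fusion protein alone was the second comparison. The 6 well-covered mRNAs of the plus strand were lower in it than in untreated libraries, by a median of −0.71 on the log2 scale (−0.77 to −0.27), and none passed the test. mt-Nd5, a proton-pumping subunit of complex I, had 20960, 29937 and 25692 normalized counts without treatment and 11759, 18063 and 15398 with the fusion protein. All 3 treated values lay below the untreated ones, and the log2 fold change was −0.77 ± 0.43 (95% interval −1.70 to 0.17; limma adjusted p = 0.732).

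mt-Nd1, also of complex I, had 14004, 17314 and 14670 against 8934, 11541 and 8348, with no overlap and a log2 fold change of −0.68 ± 0.37 (limma adjusted p = 0.712). mt-Cytb had 13202, 15711 and 14538 with the fusion protein, all below the untreated range, at −0.73 ± 0.43 (95% interval −1.67 to 0.21; limma adjusted p = 0.767). mt-Nd2 (−0.69 ± 0.42) and mt-Nd4 (−0.74 ± 0.40) did not overlap either. mt-Co1, at 33642, 43861 and 44762, overlapped with its untreated values (−0.27 ± 0.41). The intervals include 0 and also differences below −1, so the data do not show that the levels were alike.

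mt-Nd6 did not share this direction, with 2774, 2197 and 2517 normalized counts and a log2 fold change of 0.18 ± 0.29 (limma adjusted p = 0.991), and the rRNAs stood at 0.10 ± 0.44 (mt-Rnr1) and 0.15 ± 0.50 (mt-Rnr2). Of the 20 tested members 0 passed (limma), against 0.744% of all genes. An unadjusted p under 0.05 was found for 1 of the 20 (mt-Tm, tRNA-Met) and for 8.41% of all genes. Members called also numbered 0 with edgeR, DESeq2 and the replicate block, where 0.602%, 2.54% and 3.29% of all genes were called. Of the 20 tested members 7 lay wholly below the untreated libraries and 0 wholly above, where 4.7% and 5.94% of all genes did. They were 5 of the 7 well-covered mRNAs, mt-Atp8 and mt-Tm. mt-Tm had 18, 16.2 and 15.5 normalized counts without treatment and 14.8, 3.04 and 2.2 with the fusion protein (−1.57 ± 0.67; limma adjusted p = 0.536). The median over the 13 mRNAs was −0.45, the value of the sparsely counted mt-Atp8, and −0.01 over all genes tested. Over the 7 well-covered mRNAs it was −0.69. Leaving out each of the 6 libraries in turn kept the median of the 13 between −0.59 and −0.39.

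The combined treatment was compared with no treatment in the third comparison. mt-Nd6 had 2703, 5749 and 5592 normalized counts, so 2 of 3 combined libraries lay above all untreated ones and library 1 lay within their range. The log2 fold change was 1.01 ± 0.29 (2.01-fold; 95% interval 0.38 to 1.64), with a limma adjusted p of 0.144. It passed with the replicate number as a block (limma adjusted p = 0.0402), with DESeq2 (adjusted p = 0.0219) and without combined library 1 (limma adjusted p = 0.0331). Over 11 alternative settings adjusted p ranged from 0.0219 to 0.264. In those 3 fits mt-Nd6 was the 1 member called of 20, where 7.73%, 4.13% and 0.536% of all genes were.

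mt-Rnr1 had 625724, 867443 and 1037438 normalized counts in the combined group, all above the untreated values, at 0.80 ± 0.44 (95% interval −0.16 to 1.77; limma adjusted p = 0.513). mt-Rnr2 had 1157029, 1361820 and 1794402, also above the untreated range, at 0.57 ± 0.50 (limma adjusted p = 0.721). The plus-strand mRNAs lay on both sides: mt-Nd1 had 8692, 22118 and 12167 normalized counts and a log2 fold change of −0.20 ± 0.37, with library 2 above the untreated range and the other 2 below it. mt-Cytb, with 13495, 36876 and 20057, showed the same split at −0.15 ± 0.43. The median over the 13 mRNAs was −0.13, again the value of mt-Atp8, against 0.02 over all genes. Over the 7 well-covered mRNAs it was −0.15. The median of the 13 became 0.19 without combined library 1 and −0.54 without library 2. With the silent receptor covariate it was 0.32. Of the 20 tested members 0 passed with limma, against 1.4% of all genes, and 0 passed with edgeR, against 1.09%. An unadjusted p under 0.05 (limma) was found for 1 of the 20 and for 12.5% of all genes. Of the 20, 2 lay wholly above the untreated libraries (both rRNAs) and 1 wholly below (mt-Tm), where 10.3% and 7.52% of all genes did.

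Adding the fusion protein to 20 Gy (combined against 20 Gy) gave a median of −0.54 over the 13 mRNAs, against −0.02 over all genes. The median of the 13 was −0.09 without 20 Gy library 3 and −0.96 with the silent receptor covariate. Over the 7 well-covered mRNAs, with all libraries, it was −0.49. mt-Nd4, a proton-pumping subunit of complex I, had 7199, 9739 and 19469 normalized counts after 20 Gy and 4089, 12241 and 6712 in the combined group, and the groups overlapped (−0.67 ± 0.40; limma adjusted p = 0.733). mt-Nd6 was at 0.05 ± 0.29 and both rRNAs near 0 (−0.04 ± 0.44 for mt-Rnr1 and −0.07 ± 0.50 for mt-Rnr2). Of the 20 tested members 0 passed with limma, against 1.03% of all genes, and 0 passed with edgeR and DESeq2, against 0.832% and 3.01%. An unadjusted p under 0.05 (limma) was found for 0 of the 20 and for 8.99% of all genes. Of the 20, 1 lay wholly below the 20 Gy libraries (mt-Co3, a subunit of complex IV, at −0.60 ± 0.59) and 0 wholly above, where 9.55% and 8.36% of all genes did.

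Adding 20 Gy to the fusion protein (combined against fusion protein) gave a median of 0.40 over the 13 mRNAs, against 0.03 over all genes. Over the 7 well-covered mRNAs it was 0.54. The median of the 13 was 0.11 without combined library 2, 0.76 without combined library 1 and 0.82 with the silent receptor covariate. mt-Nd6 was higher by 0.83 ± 0.29 (1.78-fold; limma adjusted p = 1.00) and mt-Nd2, with 4688, 5632 and 4712 normalized counts in the fusion protein group and 4840, 16813 and 7867 in the combined group, by 0.79 ± 0.42. mt-Rnr1, at 589631, 382406 and 582971 in the fusion protein group, lay wholly below the combined libraries (0.70 ± 0.44). It was the 1 member of 20 to separate in this direction and 0 separated in the other, where 4.48% and 3.81% of all genes did. Of the 20 tested members 0 passed (limma, edgeR, DESeq2 and the replicate block), and 0% of all genes did under each. An unadjusted p under 0.05 (limma) was found for 1 of the 20 and for 2.92% of all genes. The interaction, which asks whether the fusion protein acted differently with 20 Gy than without, called 0 members and 0% of genes (limma). Its unadjusted p was under 0.05 for 0 members and for 1.03% of all genes. With edgeR and DESeq2 the interaction also called 0 members, where 0% and 0.00547% of all genes were called. The well-covered mRNAs had interaction values between −0.13 and 0.37.

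**Figure D4:**
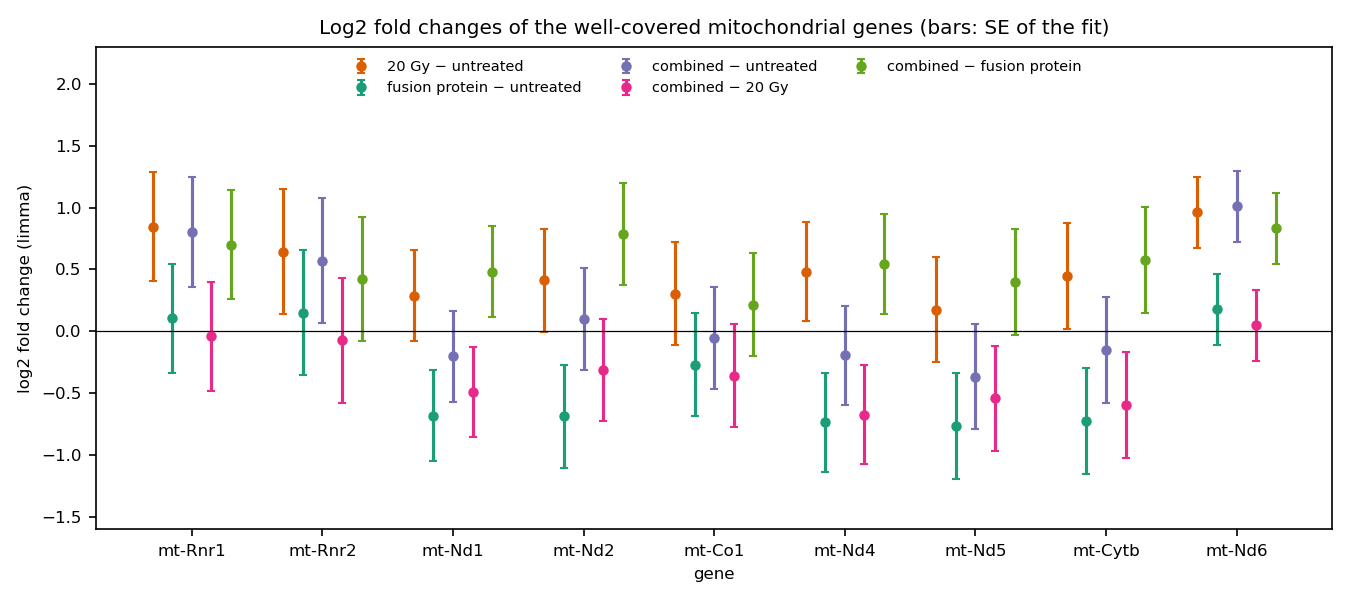
Log2 fold changes (limma, with the SE of the fit as bars) of the 2 rRNAs and the 7 well-covered mRNAs in 5 comparisons of 3 libraries against 3, on the scale of log2 of the normalized count plus 1. The plus-strand mRNAs lie between −0.77 and −0.27 for fusion protein against untreated and above 0 for 20 Gy against untreated, while mt-Nd6 lies at 0.96 and 1.01 in both irradiated groups; none passed the threshold.

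The nuclear genes that serve the mitochondrial genome were taken from 5 lists. Of 23 genes of mitochondrial DNA maintenance and transcription, 1 rose with the fusion protein, in the combined group against untreated and in the combined group against 20 Gy. This was Cmpk2, a mitochondrial kinase that supplies nucleotides for mitochondrial DNA synthesis and is known to be induced by interferon. In each of these comparisons 1 gene is 4.35% of the list. Of all genes, limma called 0.744%, 1.4% and 1.03% in that order, and DESeq2 2.54%, 4.13% and 3.01%. Cmpk2 had 207, 251 and 197 normalized counts without treatment, 210, 211 and 356 after 20 Gy, 1596, 1158 and 1524 with the fusion protein and 1953, 1309 and 2500 in the combined group. All 6 libraries with the fusion protein lay above all 6 without it. The log2 fold changes were 2.70 ± 0.28 (limma adjusted p = 0.0016), 3.09 ± 0.28 (adjusted p = 0.000365) and 2.88 ± 0.28 (adjusted p = 0.000684), and each passed with any of the 6 libraries left out. The other 22 genes of that list, among them the transcription factors Tfam and Tfb2m and the helicase Twnk, did not pass in any comparison with limma, edgeR or DESeq2. With the replicate block Ssbp1, which binds single-stranded mitochondrial DNA, also rose in the combined group against untreated (0.69, limma adjusted p = 0.0409). Cmpk2 and Ssbp1 were then 8.7% of the list, where 7.73% of all genes were called. After 20 Gy the smallest p values were those of Tfb2m (−0.56 ± 0.27), Ssbp1 (0.37 ± 0.24) and Tfam (−0.26 ± 0.19), with limma adjusted p of 0.722 to 0.787.

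Of 30 matched genes of mitochondrial RNA processing, modification and decay 0 passed in any comparison (limma). Depending on the comparison, 0 to 2 had an unadjusted p under 0.05, where 1.03% to 12.5% of all genes did. With edgeR 0 passed, and with DESeq2 1, Pnpt1 in the combined group against untreated (adjusted p = 0.00394), which is 3.33% of the list where 4.13% of all genes were called. Pnpt1, a polynucleotide phosphorylase that takes part in the decay of mitochondrial RNA, had 755, 467 and 402 normalized counts without treatment and 1686, 1152 and 1334 in the combined group, which do not overlap. The log2 fold change was 1.40 ± 0.30, just outside the threshold (limma adjusted p = 0.0513), and it passed with the replicate block (adjusted p = 0.000666). With the fusion protein alone Pnpt1 had 1467, 815 and 808 and a log2 fold change of 0.92 ± 0.30 (limma adjusted p = 0.332; 0.0151 with the block). Slirp, an RNA-binding partner of Lrpprc that stabilises mitochondrial mRNAs, had 80.9, 91.1 and 67.2 without treatment and 197, 171 and 167 in the combined group, at 1.16 ± 0.35 (limma adjusted p = 0.176; 0.0406 with the block). After 20 Gy alone Ptcd1, an RNA-processing protein, was at −0.61 ± 0.18 (limma adjusted p = 0.661) and the rRNA methyltransferase Mrm3 at −0.71 ± 0.31 (limma adjusted p = 0.722).

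Of 77 tested genes named as proteins of the mitochondrial ribosome 0 passed in any comparison (limma and edgeR). They were taken by a symbol of Mrpl or Mrps with a number, which does not show that each protein is part of that ribosome. Against untreated libraries, limma had 3 after 20 Gy, 9 with the fusion protein and 16 in the combined group at an unadjusted p under 0.05 (3.9%, 11.7% and 20.8% of the list, where 6.74%, 8.41% and 12.5% of all genes were). DESeq2 called 0, 2 and 4 in the same order (0%, 2.6% and 5.19%, where 0.246%, 2.54% and 4.13% of all genes were called). In combined against 20 Gy it called 3, Mrpl27, Mrpl30 and Mrps36 (3.9%, where 3.01% of all genes were called). With the fusion protein 64 of 77 were higher than untreated, with a median of 0.27 against −0.01 over all genes, and in the combined group 61 of 77 were, also with a median of 0.27 against 0.02. After 20 Gy alone 51 of 77 were higher, with a median of 0.04 against 0.04. Mrpl30, a protein of the large subunit, had 417, 578 and 487 normalized counts without treatment and 983, 815 and 998 with the fusion protein, with no overlap, at 0.92 ± 0.18 (limma adjusted p = 0.0502; 0.0137 with the block, 0.00036 with DESeq2). Mrpl18 (0.50 ± 0.15) and Mrpl42 (0.44 ± 0.16) had the next smallest p. In the combined group Mrpl30 stood at 0.79 ± 0.18, Mrpl27 at 0.91 ± 0.25 and Mrpl42 at 0.54 ± 0.16 (limma adjusted p of 0.0713, 0.122 and 0.148), and with the block 6 members passed and rose, which is 7.79% of the list where 7.73% of all genes were called.

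Of 13 matched mitochondrial translation factors and 13 regulators of mitochondrial biogenesis 0 passed in any comparison (limma, edgeR and DESeq2). Unadjusted p (limma) was under 0.05 for 0 of them, where it was for 1.03% to 12.5% of all genes, depending on the comparison. In the combined group the translation factors of smallest p were the release factor Mtrf1 (1.01 ± 0.53), the mt-Co1 translation activator Taco1 (1.19 ± 0.64) and the elongation factor Gfm1 (0.24 ± 0.18), with limma adjusted p of 0.49 to 0.647. Among the regulators, the transcription factor Nrf1 was at −0.32 ± 0.16 and Yy1 at −0.31 ± 0.27 in the combined group, and the coactivator Ppargc1b at −0.79 ± 0.47 after 20 Gy (limma adjusted p of 0.481, 0.719 and 0.741).

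**Figure D5:**
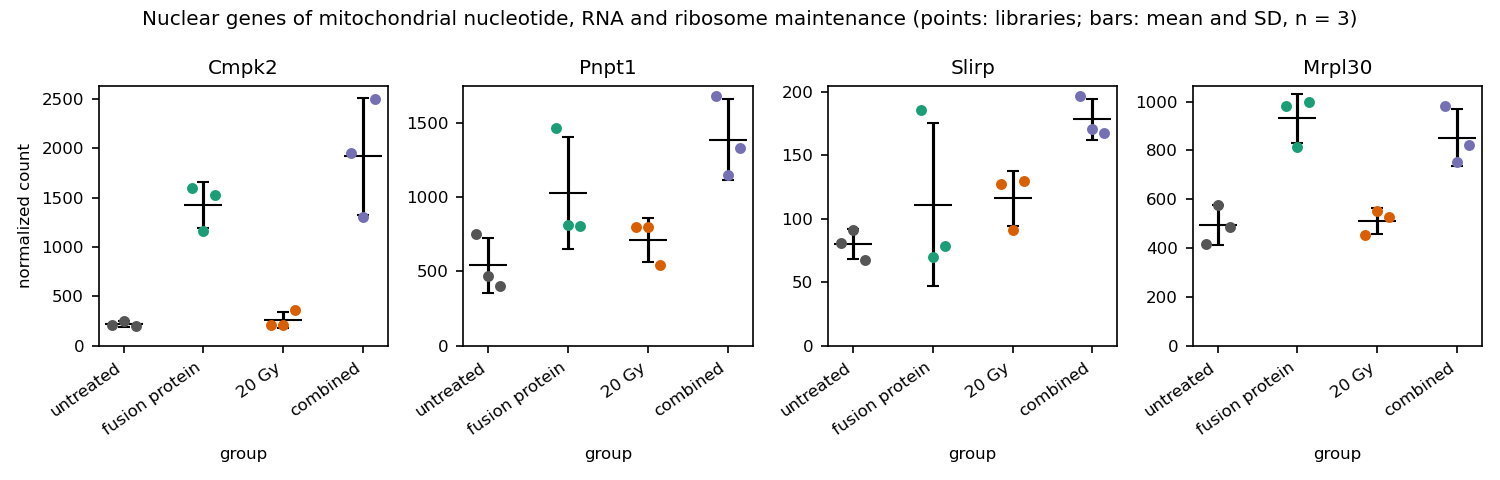
Normalized counts of the nuclear genes Cmpk2, Pnpt1, Slirp and Mrpl30 in each library by group, with the mean and SD (n = 3) as bars. Cmpk2 lies at 1158 to 2500 in the 6 libraries with the fusion protein and at 197 to 356 in the 6 without it. The other 3 genes did not pass with limma without the replicate block or with edgeR; DESeq2 called Pnpt1 in the combined group and Mrpl30 in both groups with the fusion protein, against untreated libraries.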

How the data were processed

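The deposited signal values are DESeq2-normalized read counts that the authors made, per the submitters' processing notes, with FastQC, Trimmomatic, STAR, featureCounts and DESeq2 on mm10, with no versions given. How counting handled strand and multiple matches is not stated. Per the labels, total RNA of sorted cells went into a stranded low-input total RNA kit. In each column 100% of values were whole multiples of the value of 1 read, to within 1.4e-08 of a read, so reads were recovered and used for shares and count tests. Symbols and coordinates came from GENCODE vM21, matched to 55141 of 55401 identifiers (99.53%).

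The members and gene lists were chosen with earlier results of these data known. Genes with at least 10 normalized counts in at least 3 libraries (18274) were fitted on log2(value + 1) with limma 3.58.1 (R 4.3.3, variance trend, 12 samples in 4 groups, 8 residual degrees of freedom), two-sided, Benjamini-Hochberg over all of them. The step was tested on simulated data. All mRNAs and rRNAs, the 5 tRNAs of highest mean and any called, and of each nuclear list the called members, otherwise up to 3 of smallest p, were named by rule; copies, marker genes and list members beyond that were chosen after their values were seen. Alternatives were edgeR 4.0.16, DESeq2 1.42.0, other pseudocounts (0.5 and 5), scalings, no filter, the silent receptor reads as a covariate, the replicate number as a block, compared groups alone and each library left out. Residuals of same-numbered samples correlated at 0.156 to 0.496 (20 Gy against untreated), 0.473 to 0.621 (fusion protein), 0.334 to 0.389 (combined) and 0.41 to 0.484 (combined against fusion protein), all above 0.1, so blocked values stand beside results whose call they change; for combined against 20 Gy the lowest was 0.0095 and they do not. Copies were found with blastn 2.17.0 at 90% identity or more and by exact 100-base windows. Intervals cover the fit's error, and limits on counts counting error only.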

Additional observations from a re-analysis of the deposited data

How the results depend on the processing

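The number of members called was 0 in all comparisons and settings run, except combined against untreated, where 1 (mt-Nd6) was called with the replicate block, with DESeq2 and without combined library 1. The block changed no other member's call. With the silent receptor reads as a covariate the median over the 13 mRNAs became 1.37 (20 Gy against untreated), 0.32 (combined against untreated), −0.96 (combined against 20 Gy), 0.82 (combined against fusion protein) and −0.51 (interaction). Unadjusted p (limma) was then under 0.05 for 13 of 20 members after 20 Gy, 6 with the fusion protein and 2 in the combined group, each against untreated. It was for 8 in combined against 20 Gy, 8 in combined against fusion protein and 0 for the interaction. Of 18274 genes 964, 1639, 2125, 1573, 473 and 285 had such a p, in that order. In combined against untreated the covariate turned mt-Nd1 to 0.19, mt-Co1 to 0.38, mt-Nd4 to 0.24, mt-Nd5 to 0.086 and mt-Cytb to 0.32. mt-Nd6 in combined against 20 Gy turned to −0.21 with it and to −0.020 with scaling to reads outside mitochondrial genes. The cause was not tested. Leaving out 1 library moved the medians of the 13 mRNAs to between −0.036 and 0.79 (20 Gy), −0.59 and −0.39 (fusion protein), −0.54 and 0.19 (combined), −0.86 and −0.092 (combined against 20 Gy), 0.11 and 0.76 (combined against fusion protein) and −0.27 and 0.48 (interaction). Single genes changed sign within these ranges. For 20 Gy against untreated they were −0.26 to 0.64 (mt-Co1), −0.064 to 0.79 (mt-Cytb), −0.085 to 0.55 (mt-Nd1) and −0.27 to 0.50 (mt-Nd5). For fusion protein against untreated it was −0.0029 to 0.31 (mt-Rnr1). For combined against untreated they were −0.23 to 0.18 (mt-Co1), −0.54 to 0.19 (mt-Cytb), −0.57 to 0.10 (mt-Nd1), −0.38 to 0.52 (mt-Nd2) and −0.60 to 0.19 (mt-Nd4). For combined against 20 Gy they were −0.69 to 0.21 (mt-Co1), −0.80 to 0.10 (mt-Nd2), −0.14 to 0.40 (mt-Nd6), −0.25 to 0.36 (mt-Rnr1) and −0.30 to 0.38 (mt-Rnr2). With coding plus mitochondrial reads as denominator, shares became 0.865% (untreated mRNA), 0.581% (fusion protein mRNA), 9.31% (untreated rRNA), 13.8% (combined rRNA) and 0.00146% (untreated tRNA). Over the median instead of the summed mRNA, rRNA per kb was 265, 362, 257 and 374 times as high (untreated, fusion protein, 20 Gy, combined). Because 6 of the 13 mRNAs were sparsely counted, that median is the lowest of the 7 well-covered mRNAs in each library. It does not stand for a typical mitochondrial mRNA. The fit of compared groups alone could not be run for the interaction. At 3 libraries a group, SEs of 0.29 to 0.50 for the well-covered genes limit what could pass.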

Other observations

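The 7 pseudogenes on chromosome 1 passed the filter on low values. Their summed normalized count was 1461, 1603 and 833 without treatment, 1119, 787 and 931 with the fusion protein, 1125, 1462 and 3954 after 20 Gy and 1196, 2046 and 2312 in the combined group. The highest sum was in 20 Gy library 3, which also had the highest mitochondrial share of reads. All 7 were higher after 20 Gy (log2 0.36 to 0.76) but 3 were higher and 4 lower without 20 Gy library 3 (−0.12 to 0.28). All 7 were lower with the fusion protein (−0.89 to −0.02), and 0 passed in any comparison (limma adjusted p of 0.471 or more). The 6 sparsely counted mitochondrial mRNAs summed to 45.8 to 233 normalized counts in the same libraries. Per kb, Gm28661 stood at 0.374% to 1.35% of mt-Co1.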
